A study of Mus musculus with 16 samples.

Results

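The genes described are those of the cytosolic ribosomal proteins, the protein components of the ribosome. They were chosen by name: every row of the deposited table whose mouse symbol is Rpl or Rps followed by a number and at most 2 further letters or digits, with Rpsa and Rplp0 to Rplp2. Rows named -ps, the Rps6k kinases, Rpl3l, Rps3a2 and Rps3a3 were left out. This gave 83 genes of 13964 rows, 50 of the large subunit and 33 of the small. Of 89 symbols that fit the rule, Rpl10l, Rpl24, Rpl32l, Rpl6l, Rps12 and Rps27 had no row and were not analysed here. The annotation lists 80 of the 83 as protein-coding, Rps4l and Rpl37rt as transcribed processed pseudogenes, and Rps12l1 as a processed pseudogene. The genes lie on 19 chromosomes, with 15 on chromosome 7.

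RNA was sequenced from aortic and pulmonary valves that had been cut by laser microdissection from C57BL/6 mouse embryos at stage E14.5. Each valve was taken from wild-type and from mutant embryos, which makes 4 groups of 4 libraries each. Mutants were Jag1flox;Nkx2.5-Cre embryos, in which a floxed Jag1, a Notch ligand gene, meets a Cre recombinase driven by Nkx2.5, a gene of cardiac progenitors. The controls are labelled WT, with no allele named. All aortic libraries belong to library batch 1 and all pulmonary libraries to batch 2, and the 2 factors cannot be told apart. Within a valve, libraries that share a number come from 1 litter. The numbers do not carry over between valves: 3 of the 5 litters gave both valves, 12 libraries in all, as aortic 1 and pulmonary 3, aortic and pulmonary 2, and aortic 3 and pulmonary 1. Nothing in the labels says how many embryos went into a library, so p-values measure the spread between these libraries.

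A ribosome joins a small subunit, which reads the mRNA, to a large subunit, which forms the peptide bond. Each of its proteins is needed in about equal amount. In vertebrates most of these mRNAs begin with a C followed by a run of pyrimidines, the terminal oligopyrimidine tract, through which mTOR signalling and the protein LARP1 set their translation and stability. The genes are among the most highly transcribed of growing tissue, and many have processed pseudogenes, intronless copies of the mRNA elsewhere in the genome.

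Pyrimidine runs near the annotated start are shown for genes toward both ends of the range of differences between libraries described below. These genes were chosen among those whose window holds such a run. The sequences are RefSeq promoter windows of build GRCm38.p6, which covered 61 of the 83 genes with 72 entries. They are printed from 30 bases before to 20 bases after the start. Capitals mark a run of a C and at least 5 more pyrimidines. The first 3 belong to genes with large differences between libraries, and the next 2 to genes with small ones. In Rps25 the run ends before the annotated start, so by that start it lies outside the mRNA. In Rpl15 it spans the start, and in the other genes with a run it follows the start. Whether any of these runs begins the mRNA was not tested. Rps3a1, the gene with the largest difference, has no such run in this stretch and is shown last.
Rps25 at chr9:44407684-44407733, plus strand: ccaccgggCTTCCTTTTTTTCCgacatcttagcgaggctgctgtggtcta
Rpl15 at chr14:18270967-18271016, minus strand: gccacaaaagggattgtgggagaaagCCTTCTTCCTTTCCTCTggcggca
Rpl22l1 at chr3:28805478-28805527, plus strand: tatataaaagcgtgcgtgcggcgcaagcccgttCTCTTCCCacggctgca
Rpl13a at chr7:45128726-45128775, minus strand: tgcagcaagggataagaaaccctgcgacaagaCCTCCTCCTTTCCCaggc
Rpl18 at chr7:45718041-45718090, plus strand: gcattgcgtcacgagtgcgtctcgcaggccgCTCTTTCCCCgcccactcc
Rps3a1 at chr3:86142649-86142698, minus strand: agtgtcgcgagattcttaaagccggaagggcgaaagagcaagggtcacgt
A C followed by 5 pyrimidines, read on the gene's strand from 20 bases before to 30 after the start, was found for 45 of 61 genes, or 73.8%, against 39.0% of 10403 genes of the table with a window. From 5 before to 10 after the start the shares were 42.6% and 12.1%. In the window 250 before to 50 after, searched on both strands, CCGGAA, the core of ETS factor sites, was found in 57.4% against 30.6%, and GGGCGG, the core of a GC box, in 63.9% against 69.2%. TATAAA was found in 11.5% against 8.81%. These matches describe letters in a window and not bound sites.

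The 16 libraries held 4.56 to 8.68 M recovered reads, and replicate libraries of a group correlated at 0.790 to 0.932 over 24 pairs on log2 values. Values are the deposited normalised counts, reads per M after scaling between libraries. The libraries fall apart by Mylpf, a light chain of fast skeletal muscle myosin. It was at 0.57 to 23.2 in 6 libraries (replicates 2 and 4 of wild type and 4 of the mutants, in both valves) and at 278 to 900 in the other 10. Of 17 skeletal muscle markers, 16 were higher in each of the 10 than in each of the 6. The mean log2 level of the 17 ran from 4.51 to 6.14 against 0.35 to 1.87. Mylpf, which defines the 2 sets, is itself among the 16 and enters this mean. The marker list of valve and cushion mesenchyme ran the other way, at 6.03 to 7.89 against 7.92 to 8.31, with 3 of 13 genes lower in each of the 10. Cardiomyocyte markers stood at 3.18 to 6.72 against 1.63 to 4.27. Of these 12, Myl4, Actn2 and Smpx were higher in each of the 10, and the other 9, among them Myh6, Myl7 and Ryr2, overlapped. Endothelial and endocardial markers ran from 4.14 to 6.20 in the 10 against 5.83 to 6.96 in the 6, with 2 of 10 lower in each of the 10. Markers of neurons and Schwann cells ran from 2.26 to 4.33 against 1.97 to 2.65, and all 9 overlapped. Mitochondrial rRNA took 21.4% to 31.7% of reads in the 10 libraries and 16.2% to 18.7% in the 6. In such bulk samples fewer cells of a type and less RNA per cell cannot be told apart.

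The 83 genes together took 2.66% to 5.56% of the reads of a library. In wild-type aortic libraries 1 to 4 the share was 4.82%, 3.41%, 5.39% and 3.24%. In mutant aortic libraries it was 5.22%, 4.44%, 4.09% and 2.66%. Every wild-type aortic value but the highest lay inside the range of the mutants. In wild-type pulmonary libraries the share was 5.56%, 3.28%, 3.83% and 3.15%, and in mutant pulmonary libraries 5.03%, 4.33%, 5.46% and 3.61%, and here too the genotypes overlapped. The split by Mylpf ordered the same values without overlap. The 6 libraries below 100 stood at 2.66% to 3.61% with a median of 3.26%, and the 10 others at 3.83% to 5.56% with a median of 4.92%. Without mitochondrial rRNA in the total the shares were 3.27% to 4.40% and 5.19% to 7.89%. The Mylpf sets are defined from measured values and are no groups of the study, so their differences are described without a test.

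**Figure D1:**
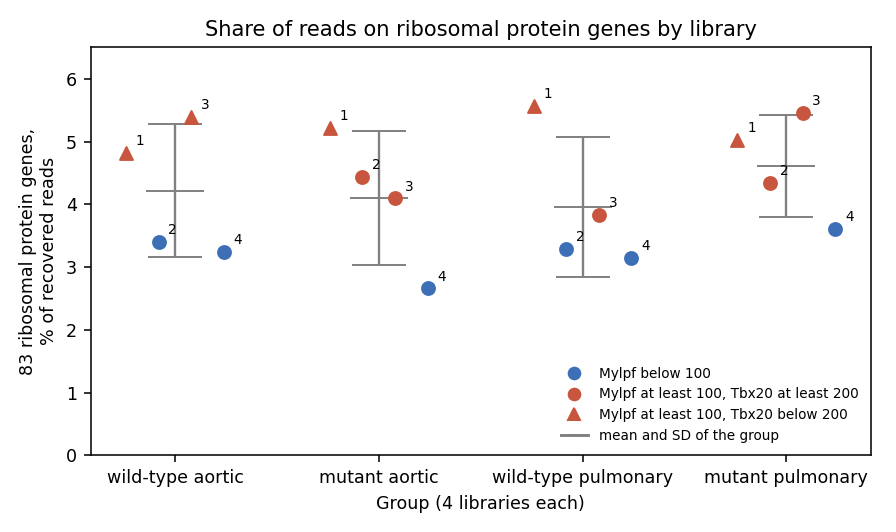
Share of recovered reads on the 83 ribosomal protein genes (percent, y axis) in each library, by group (x axis); numbers are replicates, grey bars the group mean and SD. The 6 libraries with Mylpf below 100 lie at 2.66% to 3.61%, under all 10 others, and each group holds both kinds.

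Levels differed widely among the genes, and they are compared per kilobase of transcript. Rpl41, a large-subunit protein of very few residues, was highest at 5140 normalised counts per kb. Rps27rt followed at 4329, a retrotransposed gene for Rps27, whose own row is missing. Next came the small-subunit gene Rps15a at 2274, the large-subunit gene Rpl32 at 2248 and Rps24 at 2219. Rps4x and Rpl4, which like the first 3 have the highest values before division by length, stood at 1404 and 822 per kb. The lowest levels per kb were 3.30 for Rpl39l, 19.8 for Rps12l1, 26.6 for Rpl12, 28.9 for Rps4l and 30.6 for Rpl7l1. Rpl39l, Rps4l and Rpl7l1 are paralogs of other genes of the set. Rpl12 and Rps12l1 have a near-identical copy with a far higher row, described below.

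Ribosomal protein genes were higher in the libraries with high Mylpf almost throughout. For 48 of the 83, each of the 10 libraries was above each of the 6, and for none was it the reverse. Over all 13963 genes tested, 3.68% were higher in this way and 2.6% lower. The median log2 difference of the members was 0.74, against -0.002 over all genes, and 82 of 83 differences were above 0. Both subunits shared in it, with 29 of 50 large-subunit genes and 19 of 33 small-subunit genes not overlapping. The highest value of 38 genes fell in wild-type pulmonary library 1 and that of 32 in wild-type aortic library 3. The lowest of 52 fell in mutant aortic library 4.

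**Figure D2:**
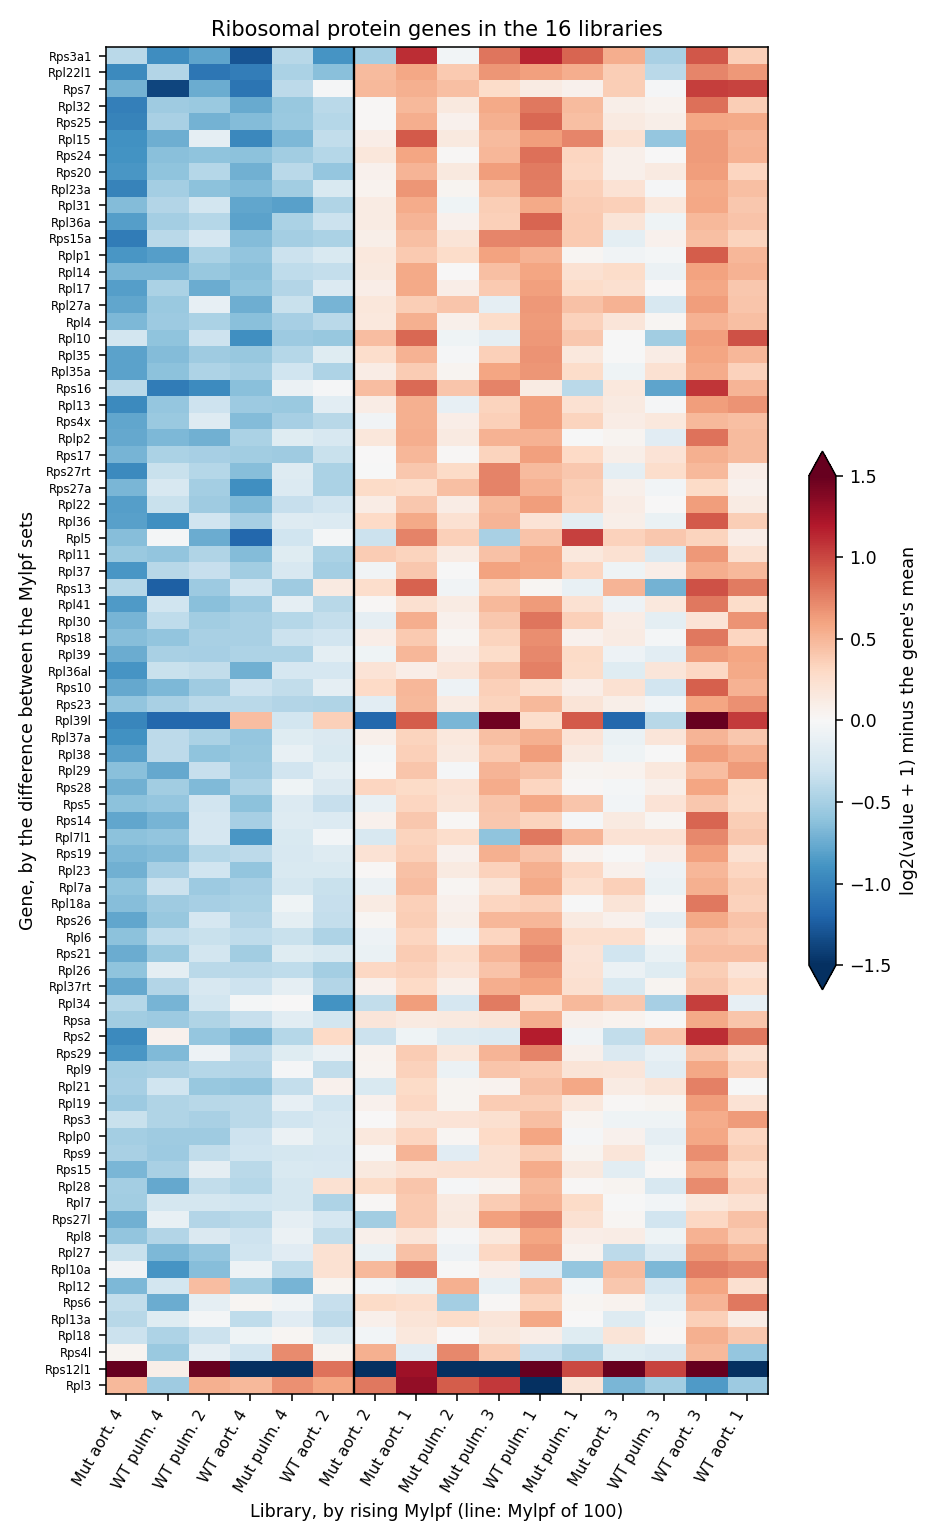
Level of the ribosomal protein genes shown (rows, by the size of the difference between the Mylpf sets) in the 16 libraries (columns, by rising Mylpf), as log2(value + 1) minus the gene's mean; WT is wild type and Mut mutant, aort. aortic and pulm. pulmonary. Nearly all rows turn from blue to red at the line that marks a Mylpf of 100, and Rpl3, Rps12l1 and Rps4l at the bottom do not.

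The largest difference was that of Rps3a1, a small-subunit protein, at a log2 difference of 1.26. It ran from 348 to 644 with a median of 478 in the 6 libraries and from 600.1 to 1879 with a median of 1367 in the 10. Its sets overlapped: mutant aortic 2 and wild-type pulmonary 3 lay under its highest value in the 6. Rpl22l1, a paralog of Rpl22 whose product can take its place in the ribosome, ran from 104 to 164 and from 168 to 369, a log2 difference of 1.23 without overlap. Rps7, a small-subunit protein that also binds MDM2, ran from 42.2 to 109.3 with a median of 66.8 and from 109.3 to 229.5 with a median of 148, so that its sets only just separate, at 1.16. Rpl32 ran from 532 to 815 and from 1095 to 1925, a difference of 1.02. Rps25, which takes part in initiation at viral internal entry sites, ran from 366 to 547 and from 741 to 1336, also a difference of 1.02. Rpl15, a core protein of the large subunit, ran from 128 to 229 and from 168 to 478, a difference of 1.01 with overlap.

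At the other end stood genes whose sets overlapped. Rpl3, at the peptidyl transferase centre of the large subunit, was the only one below 0, at a log2 difference of -0.60. It ran from 273 to 636 in the 6 libraries and from 25.2 to 984 in the 10. Rps12l1 differed by 0.02 and Rps4l by 0.05. Rps4l ran from 14.4 to 36.2 and from 14.3 to 36.4. Rpl18 ran from 199.6 to 279 and from 241 to 399, a difference of 0.36. Rpl13a, which is also known for a role in interferon-driven translational control, differed by 0.42. Across all 83 genes, Spearman's rho of the difference was -0.36 with GC content of the transcript, -0.15 with its length and 0.34 with the level per kb. These are descriptions across genes that share the same 16 libraries. The 40 genes with a pyrimidine run marked in the printed window had a median difference of 0.74, and the 21 without a marked run had 0.74. Rps7, whose only such run lies at the far upstream end of that window, was not marked and counts among the 21.

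The split held inside each valve and each genotype. Among the 8 aortic libraries 67 of 83 genes were higher without overlap, where 12.2% of all genes were. Among the 8 pulmonary libraries there were 57, against 8.51%. Among wild-type libraries there were 60, against 10.1%, and among mutant libraries 64, against 13.8%. The medians of the members were 0.82, 0.65, 0.82 and 0.66 on the log2 scale. Scaling by total reads alone lowered the median of all genes in this contrast by 0.17, and the members' median was then 0.55 with 25 genes higher without overlap, where 2.38% of all genes were higher and 4.72% lower.

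A second layer appeared among the 10 libraries with high Mylpf when they were ordered by Tbx20, a transcription factor of valve mesenchyme, an ordering chosen after the values were seen. In 5 of them (replicate 1 of every group and wild-type aortic 3) Tbx20 was at 98.0 to 123, and in the other 5 at 549 to 976. The mean log2 level of the members was 8.61 to 9.003 in the former and 8.33 to 8.74 in the latter. The members' median difference was 0.32 and 81 of 83 were above 0, but 6 were higher and 0 lower without overlap, where 2.04% and 5.87% of all genes were. Over all genes the median was 0.03, with 7394 of 13963 above 0. Lists described below also had medians above 0: 0.29 for translation factors, 0.24 for mitochondrial ribosomal proteins and 0.23 for ribosome biogenesis. In the 6 libraries with low Mylpf the mean log2 level of the members was 7.76 to 8.14.

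Inside the 10 libraries the genes also moved together. The correlation of each gene's log2 value with the mean of the other 82 had a median of 0.82. It was at least 0.9 for 18 genes and under 0.5 for 9. Of all genes tested, 59, or 0.423%, reached 0.9 with the mean of all members. This count takes in the members, each set against a mean that holds its own value. Rpl3 was lowest at -0.40, followed by Rps4l at -0.13 and Rpl5, a large-subunit protein of the 5S rRNA particle, at 0.08. The points share library, depth and scaling, so these are descriptions.

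Other genes of the translation apparatus were compared in the same way, from lists drawn up with earlier results of these data known. Of 39 genes listed as translation factors or as transcripts with a pyrimidine tract, 11 (28.2%) were higher in each of the 10 libraries and 1 lower. The list was drawn up by name, and its genes were not checked for a tract. Over all genes tested, 3.68% were higher and 2.6% lower in this way. The median of the 39 was 0.46. Npm1, a nucleolar chaperone of ribosome assembly, ran from 590 to 854 in the 6 libraries and from 1148 to 2232 in the 10. Eef1a1, the elongation factor that delivers tRNAs, ran from 3225 to 3803 and from 4415 to 6491. Tpt1 ran from 894 to 1262 and from 1522 to 2457. The 1 that was lower was Vim, an intermediate filament gene strongly expressed in mesenchyme, which ran from 2224 to 3566 and from 919 to 1970. Of 66 genes of ribosome biogenesis and RNA polymerase I, only Nhp2 did not overlap, or 1.52%, under the share of all genes. The list's median was 0.29. Of 78 mitochondrial ribosomal protein genes, Mrpl42 and Mrpl50 did not overlap, or 2.56%, also under the share of all genes. The median of the 78 was 0.33. Of the ribosomal proteins with other names, Rack1 ran from 466 to 635 and from 691 to 950 without overlap. Fau, whose protein is made as a fusion with a ubiquitin-like part, overlapped, with a difference of 0.51. How far muscle or other cells in the dissected pieces bear on any of these values was not tested.

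Near-identical copies set limits on the values of single genes. For 47 of the 83, the table holds another row whose transcript is at least 95% identical over at least 200 bases, 62 such rows in all. Per the submitters' processing notes RSEM was used, a tool that estimates how reads fitting several transcripts are shared out, and its settings are not given here. For 33 genes a copy had at least 5% of the gene's mean. The copy was higher than the named gene for several. Rpl12 averaged 33.0 beside 467 for its copy Gm10275, and Rpl31 122 beside 1477 for Rpl31-ps8. Rpl5 averaged 131 beside 910.3 for Gm15500, and Rps6, whose phosphorylation marks mTOR activity, 152 beside 839 for Rps6-ps4.

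Rpl3 (chr15:80077791-80091868, minus strand) and the processed pseudogene Rpl3-ps1 (chrX:13202571-13203780, plus strand) show the limit most clearly. Over 1209 aligned coding bases they differ at 2. The stretch of coding bases 728 to 787 is printed from the annotated transcripts of GRCm38, with the differing base in capitals.
Rpl3: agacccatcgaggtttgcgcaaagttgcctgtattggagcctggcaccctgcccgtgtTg
Rpl3-ps1: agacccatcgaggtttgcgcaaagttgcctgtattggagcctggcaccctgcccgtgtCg
In wild-type aortic libraries 1 to 4 Rpl3 was at 271, 594, 219 and 551, and Rpl3-ps1 at 771, 15.0, 707 and 89.1. In mutant aortic libraries Rpl3 was at 984, 681, 245 and 553, and Rpl3-ps1 at 45.5, 15.2, 593 and 31.6. The pseudogene was high where the gene was low. In wild-type pulmonary libraries Rpl3 was at 25.2, 573, 274 and 273, and Rpl3-ps1 at 846, 63.2, 408 and 331. In mutant pulmonary libraries Rpl3 was at 451, 742, 821 and 636, and Rpl3-ps1 at 489.9, 98.8, 127 and 28.04. Rpl3 alone thus spanned a 39.0-fold range over the 16 libraries, and the sum of both rows a 1.78-fold range, from 585 to 1042.

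Rps3a1 (chr3:86137940-86142702, minus strand) has a similar pair of copies, Rps3a2 (chr14:88123017-88123808, minus strand) and Rps3a3 (chr13:108670603-108671397, plus strand). Over the coding bases Rps3a2 differs from it at 4 of 792 aligned positions and Rps3a3 at 9 of 795. Coding bases 613 to 672 hold 3 of the variable positions, shown in capitals.
Rps3a1: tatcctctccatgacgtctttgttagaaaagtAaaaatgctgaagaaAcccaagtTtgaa
Rps3a2: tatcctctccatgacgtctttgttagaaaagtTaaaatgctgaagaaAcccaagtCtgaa
Rps3a3: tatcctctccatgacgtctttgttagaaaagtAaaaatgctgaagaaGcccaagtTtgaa
Rps3a3 was listed at 0 in 7 libraries and at 0.68 in wild-type pulmonary 1, and at 92.0 to 617 in the other 8. Those 8 were replicate 2 of every group, wild-type aortic 1 and 4, and wild-type pulmonary 3 and 4. Rps3a2 was at 57.4 to 247 in the same 8 and at 0 to 8.53 elsewhere. The share of the summed rows that fell on Rps3a1 was 48.6% to 75.0% in the 8 libraries and 99.5% to 100% in the others. Rps3a1 alone spanned a 5.40-fold range, and the sum of the 3 rows a 3.28-fold range.

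**Figure D3:**
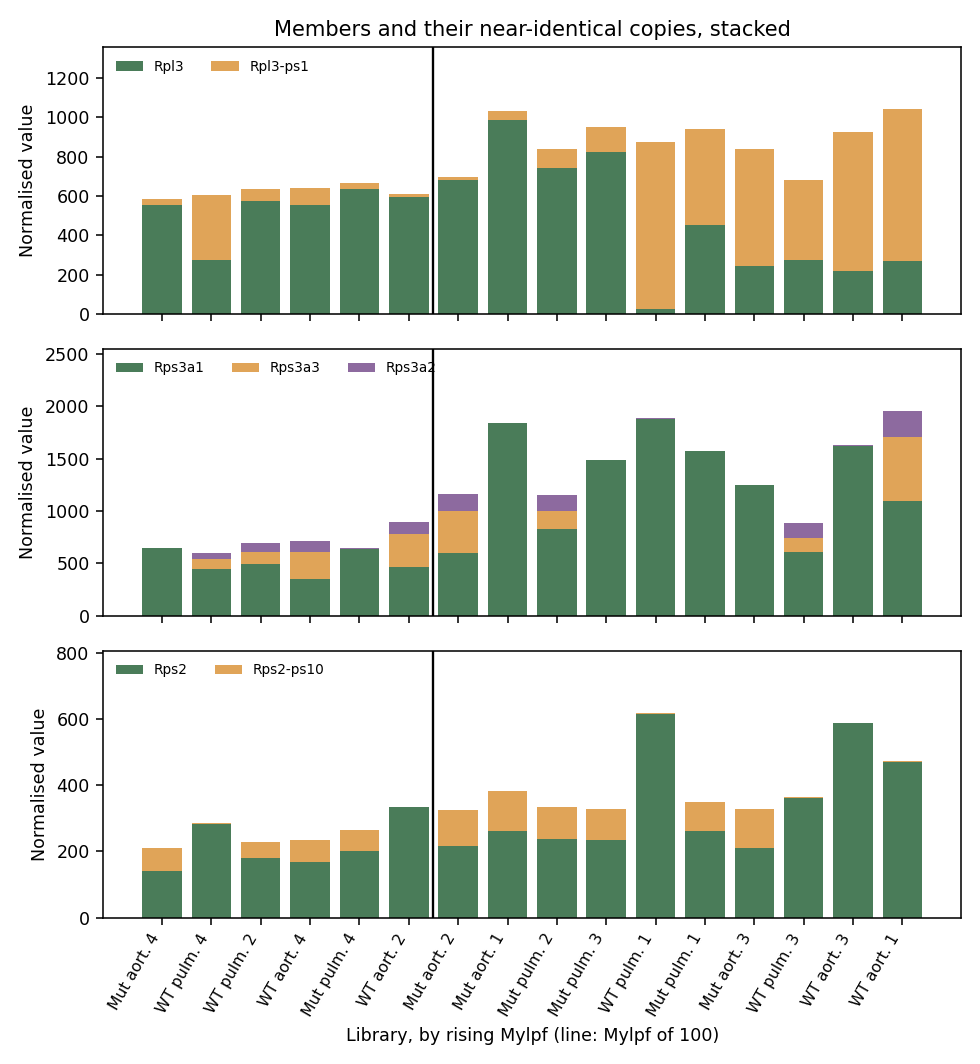
Normalised values of Rpl3, Rps3a1 and Rps2 (green) with their near-identical copies stacked on them (other colours), for the 16 libraries in order of rising Mylpf (x axis; the line marks 100). The copies' shares change from library to library, as for Rpl3-ps1, while the summed heights of Rpl3 stay within 585 to 1042.

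Summing each gene with its copies, an alternative chosen after the values were seen, changed part of the exceptions of the Mylpf split. The sums reduced the 83 genes to 82, since Rpl37 and Rpl37rt were joined, and took in 35 copy rows. Of the 82, 63 were then higher in each of the 10 libraries, against 3.67% of all genes, with a median of 0.73. Of 34 genes that overlapped from their own rows and kept a row, 15 no longer overlapped and 19 still did. Rpl3 with its copy differed by 0.49 without overlap. Rps12l1 with Rps12-ps3 differed by 0.70. Rps3a1 went from 1.26 to 1.05 and Rps7 from 1.16 to 0.79, while Rps4l, which was not summed, stayed at 0.05. The 50 genes with no copy of 5% or more had 35 without overlap and a median of 0.73 from their own rows, against 13 of 33 and 0.75 for those with one.

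**Figure D4:**
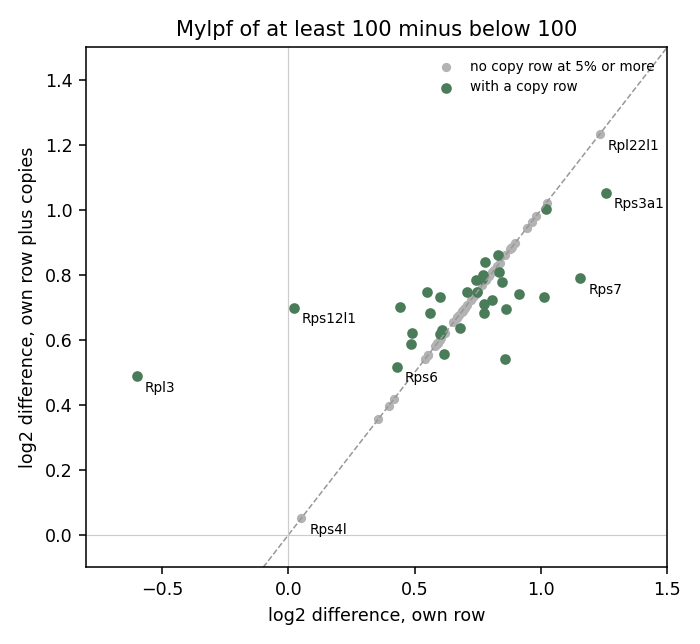
Log2 difference between libraries with Mylpf of at least 100 and below 100 for each gene's own row (x axis) and for the row summed with its copies (y axis); grey genes have no copy row of 5% or more and lie on the diagonal. Rpl3 moves from -0.60 to 0.49 and Rps12l1 from 0.02 to 0.70.

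In aortic valves, no ribosomal protein gene differed between mutant and wild type at an adjusted p of 0.05 in limma, and 0% of all 13963 genes did. At an unadjusted p under 0.05 there were 2 lower members and 0 higher, where 0.695% and 0.709% of all genes were lower and higher. The median difference was -0.08, with 21 of 83 above 0, against 52.8% of all genes. Its sign rested on single libraries: the median was 0.15 without mutant aortic 4, 0.10 without wild-type aortic 3 and 0.03 without wild-type aortic 1, -0.25 without wild-type aortic 4, and 0.13 with library weights. The genotypes overlapped for each of the 83, where 0.759% of all genes were higher and 0.824% lower in each mutant library. edgeR and DESeq2 likewise called 0 members, with 1 lower at an unadjusted p under 0.05 in each, and 0 higher. Of all genes edgeR put 0.716% lower and 0.602% higher by that rule, and DESeq2 1.03% and 0.804%. With the litter as a replicate block 2 members were lower and 0 higher, where 0.967% and 2% of all genes were.

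The smallest aortic p among members was that of Rpl39l, a paralog of Rpl39 known from testis, at a log2 difference of -1.48 with SE 0.59 and unadjusted p = 0.0230. Its values were 3.67, 1.88, 5.93 and 2.11 in wild type and 3.22, 0, 0 and 0.14 in the mutants, close to the floor of the table. Rps2, a small-subunit protein near the mRNA entry, followed at -0.81 with SE 0.37, unadjusted p = 0.0416 and adjusted p = 0.9997. Rps2 was at 471, 335, 588 and 169 in wild type and at 261, 217, 211 and 140 in the mutants, lower in the mutant of 4 of 4 litters. Its copy Rps2-ps10 was at 1.49, 0, 1.78 and 64.6 in wild type and at 123, 108, 117 and 70.3 in the mutants. Rps2 summed with the copy differed by -0.34. Rpl27 and Rpl18 were among the next lower, at -0.37 and -0.17. On the higher side Rps12l1 stood at 1.18, Rpl3 at 0.56, Rps3a1 at 0.41, Rps27a at 0.25 and Rpl10 at 0.24. Of these, all but Rps27a turned below 0 when summed with their copies, at -0.16 for Rps12l1, -0.03 for Rpl3, -0.06 for Rps3a1 and -0.02 for Rpl10, and Rps27a was at 0.10.

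In pulmonary valves no member differed at an adjusted p of 0.05 either, with 0% of all genes called. Of the 83 differences 77 were above 0, against 50.9% of all genes, and the median was 0.19. It was 0.06 without wild-type pulmonary 4, 0.07 without wild-type pulmonary 2, 0.11 without mutant pulmonary 3, 0.42 without wild-type pulmonary 1 and 0.32 without mutant pulmonary 4. At an unadjusted p under 0.05 there were 3 higher and 1 lower, where 1.68% and 1.45% of all genes were. Here too the genotypes overlapped for each of the 83, against 0.938% of all genes higher and 1.05% lower without overlap. edgeR and DESeq2 also called 0 members, with 2 and 3 higher at an unadjusted p under 0.05, where 1.51% and 2% of all genes were higher, and DESeq2 called 2 genes of the table. With the litter as a replicate block limma still called 0, with 8 higher and 1 lower at an unadjusted p under 0.05, where that fit put 3.33% and 2.9% of all genes.

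In each valve, 2 of 4 wild-type and 1 of 4 mutant libraries had Mylpf below 100, and the part of this in the differences was not tested. With log2 Mylpf as a covariate the pulmonary median became -0.06 with 29 of 83 above 0. Among pulmonary libraries with Mylpf of at least 100 it was -0.05 with 31 above 0. Among those below 100 it was 0.20 with 68 above 0, where 1 mutant library faces 2 wild-type libraries, close to the 0.19 of all libraries. In aortic valves the median was -0.30 with 5 of 83 above 0 among libraries of at least 100. Among those below 100 it was -0.26 with 8 above 0, and over all libraries -0.08. The first of these sets 2 wild-type libraries, both with low Tbx20, against 3 mutants of which 1 has it. The second sets mutant aortic 4 alone, which held the lowest value of 52 of the 83 genes, against 2 wild-type libraries. No member passed an adjusted p of 0.05 in any of these fits. By litter, the mutant was higher for 47, 74, 2 and 17 of the 83 genes in aortic pairs 1 to 4, and for 6, 81, 78 and 67 in pulmonary pairs 1 to 4. Of the litters that gave both valves, 1 had 47 aortic and 78 pulmonary genes higher in the mutant. Another, JND7, had 74 and 81, and the third, JNC10, had 2 and 6. Both JND7 pairs cross the Mylpf sets, with 23.2 (aortic) and 0.80 (pulmonary) in wild type against 278 and 341 in the mutants. The aortic JNC10 pair sets Tbx20 of 123 in wild type against 763 in the mutant. The remaining pairs of these litters each lie within the same set by Mylpf and Tbx20. The part of these levels in the counts was not tested.

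**Figure D5:**
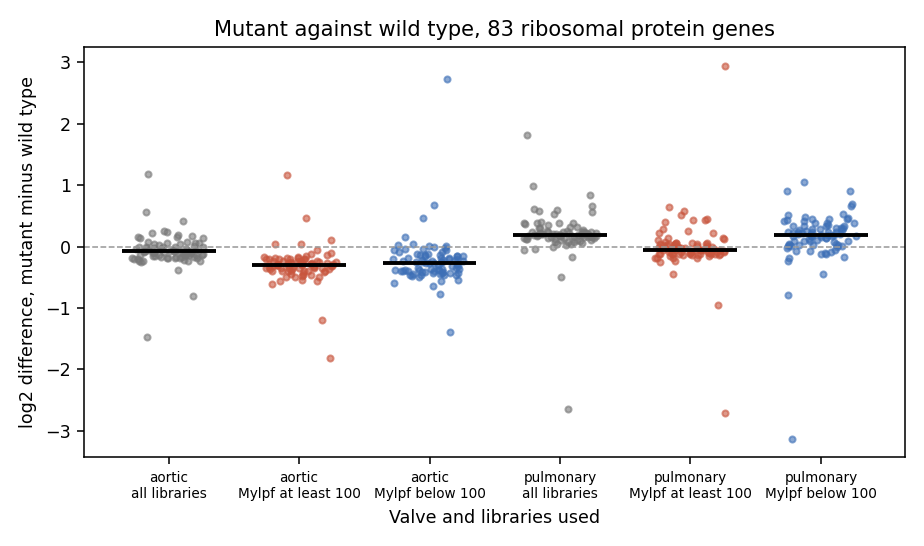
Log2 difference of mutant minus wild type for each of the 83 genes (points; black bars are medians) in aortic and pulmonary valves, from all libraries and within each Mylpf set. The pulmonary median of 0.19 over all libraries becomes -0.05 among libraries with Mylpf of at least 100 and 0.20 among those below 100. The aortic median of -0.08 becomes -0.30 and -0.26. In each valve the set below 100 holds 1 mutant library.

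The smallest pulmonary p among members was that of Rpl3, at a log2 difference of 1.82 with SE 0.69, unadjusted p = 0.0172 and adjusted p = 0.9999. Rpl3 was higher in the mutant in 4 of 4 litters of each valve, and its mean difference over both valves was 1.19 with unadjusted p = 0.0261. Summed with Rpl3-ps1 the pulmonary difference was 0.28 and the mean difference 0.13. Rps16, a small-subunit protein, was at 125 ± 53.8 (SD, n = 4) in wild type and 220 ± 77.1 (SD, n = 4) in the mutants, a difference of 0.83 that was 0.28 with Rps16-ps2 added. Rps4l followed at 0.66, Rpl39l at 0.98 and Rps13 at 0.52, the last at 0.17 when summed. On the lower side Rps12l1 stood at -2.64, with values of 18.8, 13.8, 8.80 and 4.16 in wild type and 8.65, 0, 0 and 0 in the mutants. Summed with Rps12-ps3 it was at -0.05. Rps2 was at -0.49, and Rpl12, Rpl7l1 and Rpl31 at -0.17, -0.05 and -0.04.

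The mean of the mutant difference over both valves gave no call for a member in limma, edgeR or DESeq2, with 1 member higher and 1 lower at an unadjusted p under 0.05 in limma, where 1.6% and 1.19% of all genes were. The background of calls was 0%. The median was 0.05 with 65 of 83 above 0, and with 1 library left out it ran from -0.04 without wild-type aortic 4 to 0.18 without mutant aortic 4. Rps2 was lowest by p at -0.65 with SE 0.26 and unadjusted p = 0.0228, and Rps4l and Rps16 stood at 0.40 and 0.43. Rps2-ps10 differed by 4.11 over both valves, with unadjusted p = 2.45e-05 and adjusted p = 0.171. It was at 62.1 to 123 in all 8 mutant libraries, at 64.6 in wild-type aortic 4 and 47.0 in wild-type pulmonary 2, and at 0 to 2.90 in the other 6 wild-type libraries. The cause of this pattern was not tested. Summed with it, Rps2 differed by -0.24 over both valves. Rps12l1 and Rpl12 were at -0.73 and -0.18 from their own rows.

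The difference of the mutant effect between the valves, pulmonary minus aortic, was above 0 for 78 of 83 genes with a median of 0.28, against 48.3% of all genes. The valves of 3 litters are not independent, and this fit takes all libraries as independent. With litter as a random effect over both valves 0 members were called in this and in the valve comparisons. With 1 library left out the median ran from 0.09 without mutant aortic 4 to 0.51 without wild-type pulmonary 1. None passed an adjusted p of 0.05, and 0% of all genes did. At an unadjusted p under 0.05 there was 1 higher and 1 lower member, where 1% and 0.888% of all genes were. Within libraries of Mylpf at least 100 the median was 0.25, and with log2 Mylpf as a covariate it was 0.08 with 50 above 0. By p the leading genes were Rpl39l at 2.45, Rps16 at 0.80 and Rpl27 at 0.61 above 0, and Rps12l1 at -3.82, Rpl31 at -0.19 and Rpl10 at -0.12 below.

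Between the valves of wild-type embryos no member and no gene passed an adjusted p of 0.05, 0% of those tested. The median was -0.13 with 18 of 83 above 0, against 50% of all genes, and it was 0.03 with log2 Mylpf as a covariate, 0.05 without wild-type aortic 3 and 0.00075 without wild-type aortic 1. At an unadjusted p under 0.05 there were 0 higher and 4 lower members, against 0.408% and 0.688% of all genes. Rpl10a, a large-subunit protein beside the exit site, had the smallest unadjusted p of all 13963 genes, 0.00064, at a log2 difference of -1.003 with SE 0.24 and adjusted p = 0.9998. Rpl10a was at 334, 237, 347 and 192 in wild-type aortic libraries and at 180.0, 130, 126 and 109 in wild-type pulmonary libraries, without overlap. Its mutant values, 336, 284, 282 and 195 in aortic and 135, 201, 217 and 155 in pulmonary valves, gave a difference of -0.63 with overlap. The copy Rpl10a-ps1 was at 807, 466, 811 and 408 in wild-type aortic and 785, 378, 661 and 516 in wild-type pulmonary libraries. Summed with it, Rpl10a differed by -0.30 in wild type and 0.004 in mutants, and its share of the sum was 29.3% to 33.8% in the 8 aortic libraries and 15.5% to 25.6% in the 8 pulmonary libraries. Rps13 was at -1.01 alone in wild type and at -0.20 with Rps13-ps2. Rpl39l was at -1.49. On the other side stood Rps12l1 at 1.63, Rps27a at 0.19 and Rpl13a at 0.16. In the mutants the median was 0.12 with 71 of 83 above 0, against 47.1% of all genes, and -0.08 without mutant aortic 4, and again 0% of genes were called. At an unadjusted p under 0.05 there were 0 higher and 1 lower member, against 0.251% and 0.229% of all genes. Rpl39l, Rps27rt and Rps27l led upward at 0.96, 0.48 and 0.42, and Rps12l1 and Rps13 stood at -2.19 and -0.40.

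The paralogs kept apart in level. Rpl22, at 1006 per kb, and Rpl22l1, at 467 per kb, both separated the Mylpf sets, with log2 differences of 0.80 and 1.23. Rpl36a and Rpl36al stood at 999 and 408 per kb and differed by 0.90 and 0.75. Rpl7 and Rpl7l1 stood at 601 and 30.6 per kb, with differences of 0.55 and 0.70. Rpl39 and Rpl39l stood at 1265 and 3.30 per kb. Rps4x, the X-linked gene, stood at 1404 and Rps4l at 28.9, with differences of 0.83 and 0.05. Rps27l, a paralog of Rps27 that p53 can induce, stood at 182 beside 4329 for Rps27rt, with differences of 0.55 and 0.81. Rpl10 stood at 403 per kb and its differences in the 4 groups are subject to Rpl10-ps1 and Rpl10-ps3, which brought its range from 3.69-fold to 1.83-fold when summed. Rpl37 and Rpl37rt, whose transcripts are nearly the same, gave 0.78 and 0.62.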

How the data were processed

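RNA was isolated from laser-dissected valves with PicoPure, amplified with Ovation RNA-Seq V2 and made into libraries with TruSeq, per the labels' protocols. Per the submitters' processing notes, CASAVA 1.8.2, FastQC, cutadapt 1.6, RSEM 1.2.3 and GRCm38 were used. The deposited values are a normalised signal per gene, on which whole reads were recovered: within 0.05 of a read, 100% of values came out whole, and their scaling differed by at most 0.000333% from TMM factors of edgeR. Rows were named by a gene table, which matched 13780 of 13964.

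Tests used limma 3.58.1 (R 4.3.3) on log2(value + 1) with 1 mean per group over all 16 libraries, a mean-variance trend and Benjamini-Hochberg adjustment over 13963 genes (4 or more libraries at 1 or above). All 83 members passed this filter. Fold changes of low genes are understated on this scale. edgeR 4.0.16 and DESeq2 1.42.0 on recovered reads, other scalings, filters and pseudocounts, the litter as a block or random effect, library weights, Mylpf covariates and subsets, and leaving out each library were alternatives. The test was run on simulated counts, drawn independently per gene without a Mylpf split or litters. Only the size of the differences recovered was checked there, and not the rate of calls. Copies were found with blastn on annotated transcripts (at least 95% identity over 200 bases).

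Members and lists were chosen with earlier results of these data known. Named genes were those with the smallest p in each direction (5 per genotype comparison within a valve, otherwise 3), the 6 largest and 6 smallest Mylpf differences, the 5 highest and lowest levels, and paralogs; a few of these are not reported here. Litters pair the libraries of a valve by the labels. Deviations of wild type and mutant of 1 litter from their group means correlated at -0.03 to 0.64 over 8 pairs. Of the 8 wild-type libraries, 4 correlated best with the mutant of their own litter.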

Additional observations from a re-analysis of the deposited data

Results flagged for a closer look

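Among 192 sets of 4 libraries, covering 37 named genes, their copies and the summed levels, 13 held 1 library far from the other 3. Chance alone gives such a gap in about 1 in 20 sets. Wild-type pulmonary library 1 stood apart upward for Rps3a1 at 1879 (others 447 to 609), Rpl13a at 816 (others 482 to 535), Rpl10 at 466 (others 196 to 239) and Rps16 at 205 (others 89.8 to 108). It is the only wild-type pulmonary library with both high Mylpf and low Tbx20. Its erythroid markers also had the highest mean log2 level of the 16 libraries, 10.2. The next highest was 9.67 in wild-type aortic 2, a library with low Mylpf. The part of these traits was not tested. The copies Rps3a2 and Rps3a3 stood apart in mutant aortic library 2, at 158.5 and 398, and in mutant pulmonary library 2, at 148 and 175, each time against 0 to 2.46 in the others; both libraries come from litter JND7. Rpl3-ps1 stood at 593 in mutant aortic library 3 against 15.2 to 45.5. Rps2-ps10 stood at 64.6 in wild-type aortic library 4 and at 47.0 in wild-type pulmonary library 2, against 0 to 2.90 in the others of each group. Rpl39l was at 3.22 in mutant aortic library 1 against 0 to 0.14, and Rps12l1 at 8.65 in mutant pulmonary library 1 against 0, both near the floor of the table.

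Rpl39l was lower in the mutant in 4 of 4 aortic litters and higher in 4 of 4 pulmonary litters. It was the only member with such opposite signs, and the share of all genes with them was not counted. Its level was near the floor of the table, at 0 to 0.14 in the mutant aortic libraries other than library 1. The difference between the valves was 2.45 on the log2 scale, with unadjusted p = 0.00922 and adjusted p = 0.9999 in limma, so it did not pass.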

How the results depend on the processing

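No member was called in any of the 6 comparisons under any alternative that was fitted for it. The litter as replicate block was fitted for the genotype comparisons and their difference between valves. It cannot give the comparisons between valves. Where it was fitted it called 0 of 83 in each and changed no call of a member. The signs of the members' median differences were less stable: the aortic median ran from -0.25 to 0.15 and the pulmonary from 0.06 to 0.42 when 1 library was left out, with 0.15 without mutant aortic 4, 0.10 without wild-type aortic 3 and 0.03 without wild-type aortic 1. Library weights gave 0.13 for the aortic median and 0.40 for the pulmonary one. The mean difference over both valves ran from -0.04 to 0.18. The causes were not tested.

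The count of members higher without overlap in the Mylpf split was 48, but 25 with total-read scaling and 26 with a Mylpf threshold of 10, where 2.38% and 2.4% of all genes were higher. It was 6, with 1 lower, at a threshold of 500, where wild-type aortic 1 alone is at or above it and 7.78% of all genes were higher and 7.08% lower, so that the members' share there was no more than that of all genes. It ran from 48 to 56 when 1 library was left out.

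Some named genes changed sign. With library weights Rpl3 was at -0.040 and Rpl18 at 0.022 in aortic valves, Rpl12 at 0.039, Rpl7l1 at 0.17 and Rpl31 at 0.19 in pulmonary valves, and Rpl12 at 0.060 over both. Among libraries with Mylpf below 100, Rpl3 was at -0.049 (aortic) and Rpl7l1 at 0.20 (pulmonary). Among those of at least 100, Rps3a1 was at -0.26 and Rpl10 at -0.35 (aortic) and Rpl12 at 0.027 (pulmonary). Summed with copies, Rps12l1 was at -0.16, Rpl3 at -0.025, Rps3a1 at -0.063 and Rpl10 at -0.016 (aortic), Rpl12 at 0.00034 and Rpl31 at 0.25 (pulmonary), and Rpl10a at 0.0042 and Rps12l1 at 0.20 (mutant pulmonary minus aortic). With 1 library left out, Rpl10 (aortic) ran from -0.076 to 0.55, and in pulmonary valves Rpl12 from -0.38 to 0.030, Rpl7l1 from -0.27 to 0.19 and Rpl31 from -0.18 to 0.22. Between wild-type valves Rpl13a ran from -0.0018 to 0.31 and Rps27a from -0.024 to 0.38.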
